A study of Drosophila melanogaster with 12 samples.

Results

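The chromatin sites of the transcription factor p53 in adult Drosophila melanogaster heads were described from 392 peaks, which are all the peaks the authors called in heads. Another 135 peaks were called in embryos, so the head peaks made up 392 of 527. Each peak is a region where chromatin immunoprecipitation with a p53 antibody, followed by sequencing (ChIP-seq), recovered more DNA from wild-type heads than from p53 mutant heads. The wild-type library came from the strain yw and the mutant library from the strain p535A-1-4, both from heads of adults aged 1 to 2 weeks with no stress treatment given in the labels. Chromatin was fixed for 10 minutes in 1% formaldehyde and broken to fragments of about 200 to 300 bp, and each immunoprecipitation used 2 ug of antibody. RNA came from yw and p535A-1-4 heads, each after mock treatment or 40 Gy of ionizing radiation and 3 h of recovery, with 1 library in each of the 4 groups. The embryo ChIP libraries came from untreated yw and p535A-1-4 embryos of 4.5 to 5.5 h. The embryo RNA libraries came from the same strains, given mock treatment or 40 Gy at 3 to 4 h and collected 1.5 h later, again with 1 library in each of 4 groups. Each group held 1 library, so the differences below have no check against replicates and were not tested. Heads were pooled from sieved flies, the mutation is carried by the whole animal, and p53 genotype and strain background cannot be told apart.

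p53 is a DNA-binding protein that cells use to change transcription after DNA damage and other stress. In the fly embryo it is known for switching on a small set of death genes, among them reaper (rpr), hid and sickle (skl), together with genes of DNA repair and of the stress response. Neurons of the adult head no longer divide, and much of what is known of fly p53 targets comes from embryos and larval tissue.

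The wild-type fragment height at a summit over the local mutant background, which is the fold that the authors' peak caller lists, ran from 1.44 to 14.5, with a median of 2.93. The −log10 q of the peaks ran from 1.34 to 222, with a median of 11.0. Most peaks were low: 200 of 392 were under 3-fold, 69 reached 5-fold and 28 reached 8-fold. Peak width had a median of 311 bp. Markers listed for neurons, glia and photoreceptors were present in all 4 head RNA libraries, with summed FPKM of 514 to 544, 268 to 348 and 7718 to 9507. The glial sum differed between strains, at 348 and 346 FPKM in mock and irradiated wild-type heads and 268 and 274 FPKM in mutant heads. Its markers repo, Eaat1 and alrm were lower in both mutant libraries, while nrv2 was slightly higher. The sum of 3 hemocyte markers was 26.7 and 27.7 FPKM in wild-type heads and 49.4 and 46.4 FPKM in mutant heads. Of these markers only NimC1 was higher in mutant heads, at 31.7 and 31.1 FPKM against 4.25 and 3.65 FPKM in wild-type heads. The other hemocyte markers, Hml and He, were lower in both mutant libraries. The summed level of 4 midgut markers was 79.9 FPKM in the irradiated wild-type library against 2.16 to 2.93 in the other 3. The summed level of 4 testis and accessory gland markers was 39.8 FPKM in the mock mutant library against 0.062 to 0.224 in the others. The part of these cell types and tissues in the RNA results was not tested.

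The 20 highest peaks are described here by the known roles of the genes they lie in or beside, a grouping made after the ranks were seen and not tested. The highest of all, at X:6192340-6193260 (dm6), was 14.5-fold enriched, and its summit lay 118 bp upstream of Ca-alpha1T, a T-type voltage-gated calcium channel. Lrp4, which encodes a low-density lipoprotein receptor-related protein of synapses, held a 13.0-fold peak in its 5′ UTR at X:15911845-15912363. The first intron of DIP-gamma, an immunoglobulin-domain protein of neuronal cell surfaces, held a 9.58-fold peak at 3R:28937444-28937913. None of these 3 peaks overlapped an embryo peak. A 10.7-fold peak at X:13761318-13762976, with its summit 795 bp upstream of rdgB, a phosphatidylinositol transfer protein needed in photoreceptors, overlapped an embryo peak.

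Other peaks of the 20 lay at genes of kinases, a phosphatase and ubiquitin ligase components. Ptp61F, a tyrosine phosphatase that restrains JAK/STAT signalling, held a 13.8-fold peak in its first intron at 3L:1366713-1367150. Tlk, a kinase of chromatin assembly, held an 11.9-fold peak at X:3775785-3777599. The start of wnd, the fly DLK kinase of axon injury signalling, lay 176 bp from a 9.35-fold summit, in the peak 3L:19635118-19636235. Tao, a kinase upstream of Hippo signalling, held an 8.94-fold peak at X:19578129-19578765. These 4 peaks overlapped embryo peaks. The adaptor gene rdx, which brings substrates to a Cullin-3 ubiquitin ligase, held an 11.3-fold peak at 3R:14024603-14025605 without an embryo counterpart. The ubiquitin ligase gene ctrip held a 9.33-fold peak at 3R:4803320-4803879, shared with embryos.

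Another 5 of the 20 lay in genes of transcription factors and a coactivator, and all 5 overlapped an embryo peak. Mnt, the repressor that pairs with Max in opposition to Myc, held a 13.5-fold peak at X:3681760-3682768. The coactivator gene e(y)3 held a 13.0-fold peak at X:19630737-19631950, which had the highest −log10 q of all peaks, 222. Xrp1, a stress-induced bZIP factor, held an 11.7-fold peak at 3R:18923721-18924643, and REPTOR, a bZIP factor that TOR signalling holds in check, held an 11.3-fold peak at 3R:24581807-24582625. FoxK, a forkhead factor, held a 9.19-fold peak at 3L:11119317-11120367.

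The other peaks of the highest 20 lay at metabolic genes, at p53 itself and at genes with no assigned role here. Naprt, an enzyme of NAD synthesis, held an 11.2-fold peak at 2L:4197304-4198278, and Pcyt1, an enzyme of phosphatidylcholine synthesis, a 9.25-fold peak at 3L:1546037-1547010. Neither overlapped an embryo peak. CG30389 held a 10.3-fold peak at 2R:21159278-21160480, shared with embryos, and CG1504 a 10.2-fold peak at X:20330047-20330621, without an embryo counterpart. Of the 20 highest peaks, 17 had a summit inside an annotated gene, 16 lay within 1 kb of a transcript start and 13 overlapped an embryo peak.

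**Figure D1:**
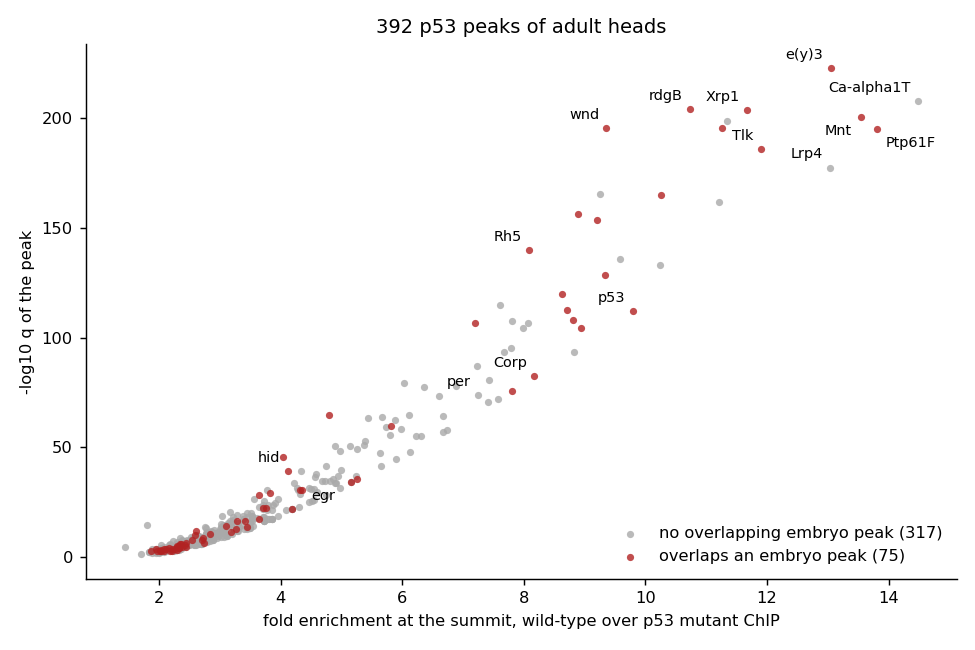
Fold enrichment at the summit (x axis, wild-type over p53 mutant ChIP) against the −log10 q of each peak (y axis) for the 392 head peaks, 1 point a peak, with red points for the 75 that overlap an embryo peak. Red points make up 19 of the 28 peaks at 8-fold or more, and 200 of 392 peaks lie under 3-fold.

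Head peaks lay at p53 itself and at 4 of the 14 p53 targets listed for comparison, and none lay near rpr, skl or grim. The gene p53 (3R:23049657-23054082) held a 9.80-fold peak at 3R:23053047-23053644, 202 bp from a transcript start. A second, 2.30-fold peak lay 68 bp upstream of its outermost start, at 3R:23054020-23054224. Its RNA was 11.7 and 13.3 FPKM in mock and irradiated wild-type heads and 0.532 and 0.549 FPKM in mutant heads. Because the mutant control carries an altered p53 gene, loss of the protein and loss of DNA cannot be told apart at these 2 peaks.

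Among the listed targets, Xrp1 carried the highest head peak, and it was also the highest of the 135 embryo peaks, at 7.35-fold with summits 5 bp apart. Corp, whose product is known to lower p53, had an 8.17-fold summit 256 bp upstream of its start (X:8271487-8271854), inside an intron of CG1632. The summit of egr, the fly tumour necrosis factor that activates JNK, lay 2 bp from the gene's start at 4.32-fold (2R:10078199-10078593). The summit of hid, which blocks inhibitors of apoptosis proteins, lay 127 bp upstream of its start at 4.11-fold (3L:18185573-18185900). All 4 were shared with embryos.

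The other death genes on arm 3L carried no head peak. In the 272.198 kb from hid to skl, with 1 kb on either side, 2 head summits and 4 embryo summits were listed. The nearest head summit lay 162.242 kb from the start of rpr, 68.224 kb from grim and 181.621 kb from skl. An embryo peak at 4.59-fold lay 4.87 kb from rpr, with a summit at 3L:18403305, and no head peak overlapped it. In mock wild-type, irradiated wild-type, mock mutant and irradiated mutant heads, rpr had 4.33, 4.85, 5.28 and 4.88 FPKM. In the same order grim had 5.52, 4.25, 4.85 and 4.64 FPKM, and skl 13.95, 15.4, 14.6 and 11.9 FPKM. No gene of the 3 differed by 2-fold between any of these libraries. No head summit lay within 5 kb of the repair genes Ku80, Irbp, mre11, RnrL, PolZ1, DNAlig3 or WRNexo either. Whether weaker binding there fell under the authors' threshold cannot be told from a peak list.

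Counts over the other gene lists are read against all 10632 annotated genes at 1 FPKM or more in heads, of which 3.52% held a head summit or had one within 1 kb of the start. The share was 4 of 14 for the p53 targets, 3 of 5 for p53 partners (p53, Corp and Hipk), 2 of 11 for JNK and stress genes (Gadd45 and Atf3) and 2 of 8 for clock genes (per and vri). It was 2 of 9 for neuronal genes (Sh and Rbp9), 3 of 11 for transcription regulators (Xrp1, Eip75B and Eip74EF), 1 of 18 for DNA repair (phr) and 1 of 10 for photoreceptor genes (Rh5). None of the listed 9 apoptosis genes, 6 glial genes, 6 autophagy genes or 9 immune effectors had one. The autophagy gene Atg17, which was not in that list, held an 8.71-fold peak. The lists are short, overlap in Corp and Xrp1, and were chosen with results known, so these counts describe the listed genes alone.

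Several of these list members carried clear peaks. The clock repressor gene per had a 7.24-fold peak in its 5′ UTR, 71 bp from its start (X:2685449-2685853), with no embryo counterpart. Its RNA was 21.998 and 29.8 FPKM in mock and irradiated wild-type heads, and 24.6 and 46.6 FPKM in mock and irradiated mutant heads, so both strains were higher after irradiation. Rbp9, a neuronal RNA-binding protein, held a 6.88-fold peak in its 3′ UTR (2L:2966084-2966490). Gadd45, a stress-response gene, had a 3.02-fold summit 353 bp upstream of its start, and Atf3, a bZIP factor, a 4.97-fold peak in an intron. Rh5, the blue-sensitive opsin of inner photoreceptors, had an 8.08-fold summit 822 bp upstream of its start (2L:12006882-12007776), shared with embryos at 3.19-fold.

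Head peaks clustered at starts of transcription. Of 392 summits, 215 (54.8%) lay within 1 kb of an annotated gene start, a zone that covers 19.9% of the bases, and 261 (66.6%) lay within 1 kb of the start of some transcript. Within 100 bp of a gene start lay 76 summits, for example those of Dp1, an RNA-binding protein (8.63-fold, 1 bp), and p115, a vesicle tether (8.82-fold, 74 bp). Among the 215, 139 were on the transcribed side and 76 on the upstream side. Another 77 summits lay more than 5 kb from any gene start.

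The annotation classes were also unevenly filled. The 5′ UTR held 92 of the 390 nuclear summits (23.6%) and 3.38% of the bases. Examples are crp, the fly AP-4 bHLH factor (8.88-fold), RhoU, a small GTPase (8.81-fold), and Atg17, an autophagy scaffold (8.71-fold). Introns held 167 (42.8%, against 42.7% of bases), and 123 of these 167 lay in a first intron. Coding exons held 28 (7.18%, against 16.7%), 3′ UTRs 9 and the stretches between genes 87 (22.3%, against 30.5%).

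**Figure D2:**
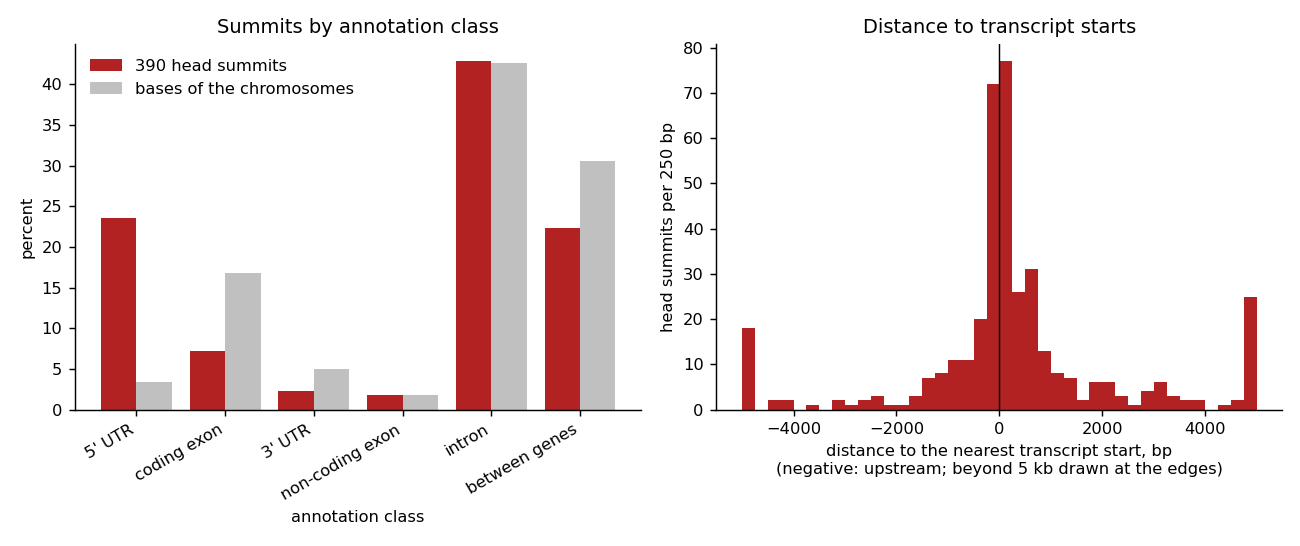
Left, percent of the 390 nuclear head summits (red bars) and of chromosome bases (grey bars) in each annotation class. Right, head summits per 250 bp by distance to the nearest transcript start (x axis, bp, negative upstream), with those beyond 5 kb drawn at the edges; 261 of 392 lie within 1 kb.

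Placed against the gene intervals of the authors' head RNA table, 303 of 392 summits (77.3%) lay inside an interval. Those intervals cover 67.1% of the bases. The reference annotation gave the same count, 303, over 69.5% of the bases. Intervals in the RNA table often spanned several genes: 4371 of the matched genes (27.0%) had an interval more than 2 times as long as the annotated gene. Corp had an interval of 114.5 kb for a gene of 1.51 kb, so the annotated genes were used for all distances. Coding genes with a head summit inside were long, with a median of 13.9 kb against 2.16 kb over all coding genes, and the counts were not adjusted for length.

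The X chromosome carried more peaks than the other arms, and with a higher median fold. It held 108 of 392 head peaks (27.6%) on 17.6% of the annotated length, or 4.59 peaks per Mb. The other large arms had 2.29 to 2.89 per Mb, from 2R to 2L. In embryos the X held 17 of 135 peaks (12.6%), or 0.722 per Mb. The median fold of head peaks was 3.42 on the X and 2.76 on 2L, 2R, 3L and 3R together. Ca-alpha1T, Mnt, e(y)3, Lrp4, Tlk, rdgB, CG1504 and Tao gave the X 8 of the 20 highest peaks.

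The X also differed in its background. Solving the listed fold and p together, under a Poisson model with a pseudocount of 1 that is assumed here, gave a median wild-type height of 68.7 fragments on the X and 71.0 on the 4 large autosomal arms. The mutant background came out at 18.2 fragments on the X and 24.1 on those arms. The sex of the flies is not given in the labels, and the part of sex chromosome copy number was not tested.

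**Figure D3:**
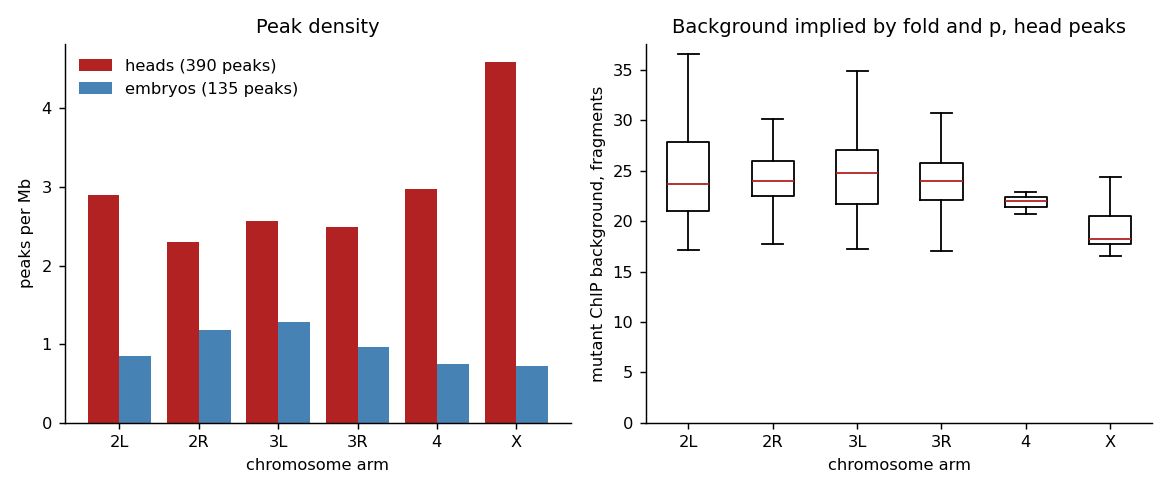
Left, peaks per Mb of each chromosome arm for heads (red) and embryos (blue), with 4.59 on the X in heads and 0.722 in embryos. Right, mutant background in fragments implied by fold and p at head peaks (red line median, box quartiles, whiskers to the last value within 1.5 box lengths, values beyond not drawn), with a median of 18.2 on the X.

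The highest head peaks were mostly called in embryos too, and the low ones mostly were not. An embryo peak overlapped 75 of 392 head peaks (19.1%), and 73 of 135 embryo peaks (54.1%) overlapped a head peak. The overlap held 34 of 200 head peaks under 3-fold (17.0%), 17 of 123 from 3 to 5-fold, 5 of 41 from 5 to 8-fold, and 19 of 28 at 8-fold or more (67.9%). Of the 20 highest embryo peaks, 14 overlapped a head peak.

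Shared peaks often had near-identical summits. The gap between the head and embryo summit had a median of 47 bp, and 27 of the 75 were within 20 bp. It was 3 bp for Ptp61F and p53, 5 bp for Xrp1, ctrip and Dp1, and 10 bp for Mnt and Tlk. Head and embryo folds over the 75 pairs had a Spearman rho of 0.65, a description over peaks that share the same 4 libraries. Without the low-fold runs of neighbouring peaks described below, the rho was 0.53 over 54 pairs. Head folds were higher at most named pairs, for example 13.8 against 4.68 at Ptp61F and 13.5 against 2.81 at Mnt. For egr the head fold was lower, 4.32 against 5.04. Folds of different libraries depend on their depth and background, so these pairs give no change in binding.

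At the low end of the list, 3 peaks had the least support. They lay 10.4 kb from the start of nebu (1.704-fold, −log10 q 1.34), 11.4 kb from Takl1 (1.95-fold, 1.86) and 712 bp from the start of e(y)3 (1.88-fold, 2.00). Another 2 peaks lay on mitochondrial DNA, at 1.44-fold and 1.79-fold, the former being the lowest fold of the list.

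Genes near head peaks were mostly expressed in heads, and nearly all stayed under 2-fold after irradiation, as did nearly all expressed genes. A gene counts here as bound when a head summit lies within 1 kb of its annotated start, which held for 287 annotated genes. The RNA table listed 271 of them, and 254 reached 1 FPKM in at least 1 of 4 libraries (93.7%, against 64.6% of all genes in the table). Of the 271, 241 reached it in all 4 libraries, 13 in 1 to 3 of them and 17 in none. The 254 had a median of 28.9 FPKM in mock wild-type heads, against 21.3 FPKM over all expressed genes.

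In irradiated wild-type heads, 1 of the 254 was higher by 2-fold or more, against 1.52% of all 10672 expressed genes, and 1 was lower, against 0.487%. The higher gene was CG15456, with a 2.79-fold summit 248 bp from its start. It had 7.16 and 18.0 FPKM in mock and irradiated wild-type heads and 12.4 and 11.2 FPKM in mutant heads, so the mock wild-type library was the lowest of the 4. The lower one was asRNA:CR45135, at 6.14, 1.41, 0.652 and 1.41 FPKM in the same order. That difference rests on an estimated 12 and 3 fragments, and the exact binomial 95% interval of the ratio, for counting error alone, was 0.0364 to 0.745. In irradiated mutant heads none of the 254 passed 2-fold either way, against 0.637% and 0.731% of all genes. The median log2 difference of bound genes was −0.01 in wild-type heads and −0.06 in mutant heads, against 0.01 and −0.04 over all expressed genes.

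The listed targets with a head peak stayed below 2-fold in heads. The Xrp1 summit lay inside the gene, 9445 bp from its start, so Xrp1 is not counted as bound. Xrp1 had 407 and 457 FPKM in mock and irradiated wild-type heads and 380 and 432 FPKM in mutant heads, all 4 close together. Corp had 4.09 and 5.98 FPKM in wild-type and 7.30 and 8.53 FPKM in mutant heads, the mutant pair being above the wild-type pair. For hid the values were 4.802 and 5.69 FPKM in wild-type and 3.88 and 3.34 FPKM in mutant heads. For egr they were 29.5 and 33.6 FPKM in wild-type and 27.0 and 26.1 FPKM in mutant heads. Both hid and egr were slightly lower in the mutant pair. In whole heads, fewer cells of a type and less RNA per cell cannot be told apart.

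Head-bound genes were also followed in irradiated embryos, where the level filter keeps a different number of them. Of 243 that reached 1 FPKM in embryos, 10 were higher by 2-fold or more in irradiated wild-type embryos, against 1.32% of all 10654 expressed genes, and none was lower, against 0.892%; the difference from heads was not tested. None passed in irradiated mutant embryos, against 1.02% and 0.948%. Among head-bound genes with a peak shared with embryos, 6 of 46 were higher, and among the others 4 of 197. The 10 were Rab3-GEF, CG12194, Corp, CG1504, asRNA:CR44381, hid, eEF1alpha2, egr, Abca3 and p53. Xrp1 was left out of these counts because its summit lay 9445 bp from its start. It had 29.25 and 171 FPKM in mock and irradiated wild-type embryos and 28.2 and 36.0 FPKM in mutant embryos.

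Rab3-GEF, which activates the GTPase Rab3 at synapses, had the largest difference. Its 5.25-fold head summit lay 221 bp upstream of its start (X:15089268-15089653), and its embryo peak was 3.59-fold. Its RNA was 1.27 and 24.98 FPKM in mock and irradiated wild-type embryos and 2.58 and 2.29 FPKM in mutant embryos, so the irradiated wild-type library stood alone. In heads it was 39.7 and 36.6 FPKM in wild-type and 41.3 and 37.9 FPKM in mutant libraries.

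CG12194, CG1504, Abca3 and eEF1alpha2 had a head peak that no embryo peak overlapped. For eEF1alpha2 the log2 difference, irradiated minus mock, was 1.17 in wild-type embryos and −0.03 in wild-type heads. CG12194 (4.58-fold, 464 bp) had 11.9 and 60.0 FPKM in mock and irradiated wild-type embryos and 13.3 and 14.6 FPKM in mutant embryos. CG1504, one of the 20 highest head peaks, had 2.42 and 12.0 FPKM in wild-type and 1.90 and 1.81 FPKM in mutant embryos. Its head RNA was 2.50, 2.09, 1.48 and 0.985 FPKM in mock wild-type, irradiated wild-type, mock mutant and irradiated mutant heads, low in all 4. Abca3, a lipid transporter of the ABC family, had 10.3 and 23.5 FPKM in wild-type and 12.6 and 13.6 FPKM in mutant embryos. The antisense gene asRNA:CR44381, whose 3.26-fold head peak was shared with embryos, had 8.41 to 9.68 FPKM in both mutant embryo libraries, as high as the 8.91 FPKM of irradiated wild-type embryos, and its overlapping partner's reads may be counted with it. FPKM tables of heads and embryos were scaled separately, so no level is compared between them.

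**Figure D4:**
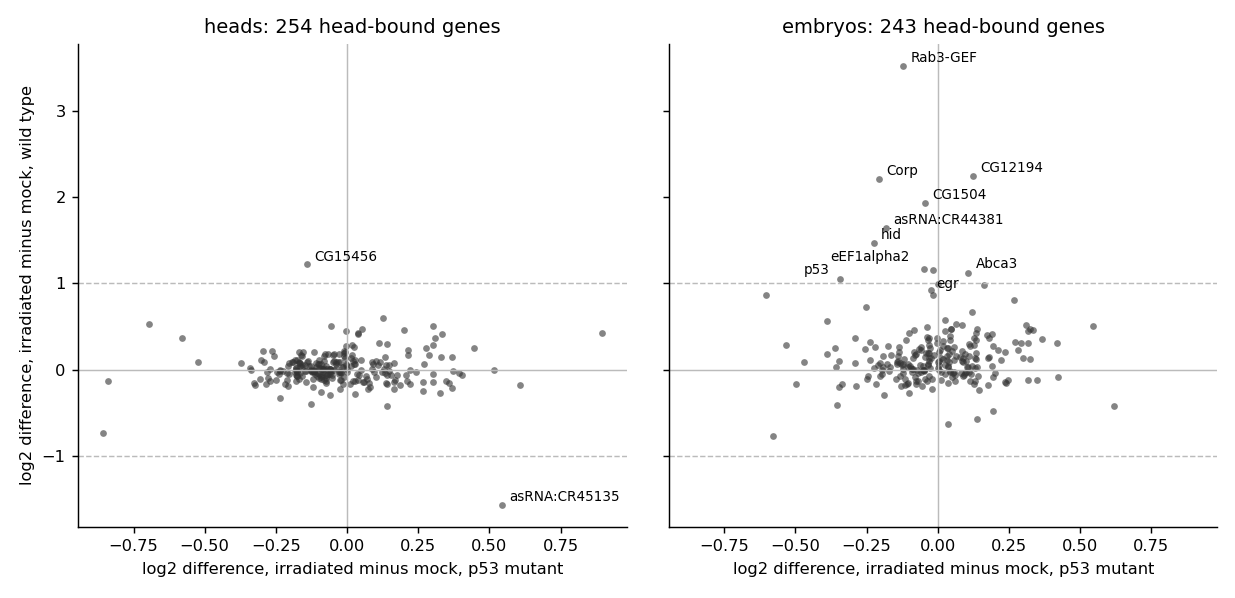
log2 difference in RNA, irradiated minus mock, of the head-bound genes in p53 mutants (x axis) and wild type (y axis), for 254 genes in heads (left) and 243 in embryos (right); 1 point a gene, dashed lines at 2-fold. In embryos 10 genes lie above the upper line, and in heads 1.

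Between p53 mutant and wild-type heads, more of the bound genes past 2-fold were lower than higher in the mutant, in counts that depended on the weak peaks. In mock heads 2 of 254 were higher, against 4.33% of all expressed genes, and 11 were lower, against 3.26%, so the lower share, 4.33%, was near the background. In irradiated heads 1 was higher, against 3.79%, and 13 were lower, against 4.31%. With only peaks at −log10 q of 5 or more, 4 of 204 bound genes were lower in mock heads and 6 in irradiated ones. Rh5 was the higher gene in both, at 280 and 267 FPKM in mock and irradiated wild-type heads and 659 and 582 FPKM in mutant heads, both mutant values above both wild-type values. The other higher gene in mock heads, CR43727, is a pseudogene at 0.672 and 3.02 FPKM in wild-type and mutant heads. The lower genes with protein products were p53, IntS12, CG3984, CG6912, kat80, phr and CG3987, joined in irradiated heads by comm and ana2.

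The photolyase gene phr, which repairs ultraviolet damage, held one of the weakest peaks, 1.94-fold at 2R:7825479-7825750, and had 53.1 and 51.3 FPKM in wild-type and 23.0 and 23.5 FPKM in mutant heads. The axon guidance gene comm had a 2.57-fold summit 56 bp from its start, with 38.6 and 40.9 FPKM in wild-type and 21.5 and 18.5 FPKM in mutant heads. At both genes, the wild-type pair and the mutant pair did not overlap. The remaining lower genes were non-coding: asRNA:CR45600, asRNA:CR45135, asRNA:CR43833 and asRNA:CR45202 in mock heads, with lncRNA:CR45474 among those in irradiated heads. Labels call the libraries stranded, but how the counting used strand is not given in the sources used here, so the antisense values may hold reads of their overlapping partners.

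Many of the lower genes lay in short runs of weak peaks. Runs of at least 3 peaks with no gap between neighbouring summits over 20 kb numbered 22 and held 82 of the 392 peaks. In 15 runs at least 1 peak reached 4-fold, as in the run around Rh5 with 5 peaks of 1.83 to 8.08-fold. In the other 7 every peak stayed under 4-fold, a limit chosen after the values were seen. These low-fold runs held 29 peaks. Embryo peaks overlapped 21 of the 29 (72.4%) and 6 of the 53 peaks in the other runs (11.3%).

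The 7 low-fold runs lay at CG31760 (2L), Sec31 and ana2 (2R), jim (3L), CG6912 and CG3984 (3R), GluClalpha (3R), Lerp and IntS12 (3R) and kat80 (X). Their spans ran from 1.51 kb at GluClalpha to 14.9 kb at jim. The run with the most peaks, at 2R:8893748-8900552, had 7 peaks of 2.03 to 2.43-fold. These lay across Sec31, a coat protein of vesicles leaving the endoplasmic reticulum, and its neighbour ana2, a centriole protein. Coding exons held 13 of the 29 summits, which is 13 of the 28 coding-exon summits of the whole head list.

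Of 17 expressed genes in these spans, 7 were lower by 2-fold or more in mock mutant heads, against 3.26% of all expressed genes, and 8 in irradiated ones, against 4.31%. None was higher, against 4.33% and 3.79%. Of the lower genes in mock heads, CG6912, CG3984, CG3987 and asRNA:CR45600 are neighbours or overlap within the run 3R:15131668-15140523. The others were asRNA:CR45202, IntS12 and kat80. No gene was lower by 2-fold in the runs at CG31760, jim and GluClalpha. Genes of the same run are thus not separate loci, which the shares of all expressed genes do not allow for. With runs limited to a highest fold under 3, 2 of 8 genes were lower in mock mutant heads. The median log2 difference of the 17 was −0.70 in both, against 0.03 and −0.02 over all expressed genes. In the other 15 runs, 1 of 39 genes was lower in mock heads and 3 in irradiated ones, with medians of −0.08 and −0.15. In embryos the genes of the low-fold runs had a median of −0.36 in mock mutants, with 1 of 14 lower, against 2.44% of all expressed genes.

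Several of these genes illustrate the size of the difference. IntS12, a subunit of the Integrator complex that processes small nuclear RNA, had 26.8 and 22.3 FPKM in mock and irradiated wild-type heads and 4.56 and 5.69 FPKM in mutant heads. For kat80, a subunit of the microtubule-severing enzyme katanin, the values were 56.8 and 59.4 FPKM against 19.8 and 20.1 FPKM. In both genes the lowest wild-type value was more than 2 times the highest mutant value. CG3984 had 48.6 and 45.2 FPKM against 12.9 and 10.4 FPKM, and asRNA:CR45600 in the same run had 15.3 and 17.6 FPKM against 0.769 and 0.675 FPKM. Sec31 was lower by less, 92.0 and 94.5 FPKM against 57.4 and 57.9 FPKM. Prosalpha4, a proteasome subunit beside kat80, did not separate the strains, with 71.9 and 81.2 FPKM against 64.9 and 79.5 FPKM, and neither did GluClalpha, a glutamate-gated chloride channel, with 65.7 and 65.5 FPKM against 67.6 and 58.2 FPKM. The zinc finger gene jim, whose run had no shared peak, had 34.5 and 37.2 FPKM against 30.6 and 31.2 FPKM.

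Outside the low-fold runs, 4 of 237 bound genes were lower in mock mutant heads, against 3.26% of all expressed genes, and 2 were higher, against 4.33%. Since the peaks are ratios of wild-type over mutant chromatin, a difference between the strains in DNA at these runs and a difference in p53 binding cannot be told apart without input DNA, which was not analysed here.

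**Figure D5:**
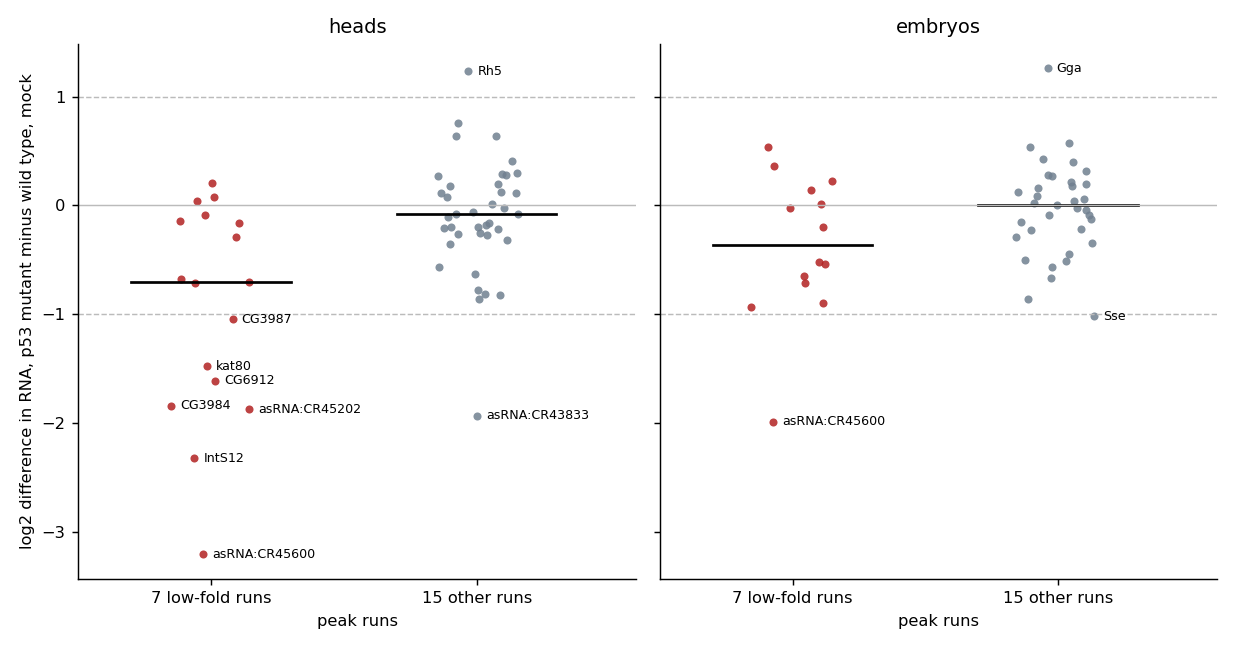
log2 difference in RNA, p53 mutant minus wild type in mock animals, for genes in the 7 low-fold runs (red) and the 15 other runs (grey), in heads (left) and embryos (right); 1 point a gene, black line median, dashed lines at 2-fold. In heads the red genes have a median of −0.70 and the grey ones −0.08.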

How the data were processed

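ChIP-seq peaks and RNA levels were taken as the authors deposited them. Per the submitters' processing notes, which give no versions, reads were handled with cutadapt, Bowtie2, Picard, SAMtools, TopHat2, Cuffdiff and MACS2 on the dm6 genome. The deposited peak list, in the narrowPeak layout of MACS2, gives the authors' fold over the mutant library, −log10 p and −log10 q for each peak. The authors' score column is that −log10 q times 10, cut to a whole number. The deposited RNA tables give FPKM per gene, and the authors' log2 columns equalled differences of log2(FPKM + 1) within 0.00173. They hold no counts. From the steps between low FPKM values the head libraries were estimated at 10650000 to 13750000 fragments, so intervals cover counting error and are approximate. ChIP depth is not given in the sources used here.

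Summits were placed against Ensembl release 115 genes (same assembly as dm6), to which 16205 of 16510 table genes (98.2%) matched by symbol, older symbol and overlap. RNA differences are log2(FPKM + 1), which understates changes of low genes, over genes at 1 FPKM or more in any library. Embryo peaks counted as shared with at least 1 bp of overlap. No library has a replicate, so calls are a fold of 2 or more, with no p. The text names the 20 highest peaks, peaks within 5 kb of 12 gene lists, up to 15 shared peaks, the 3 lowest −log10 q, runs of 3 or more peaks, peaks in p53 and in w (which held none), and bound genes past 2-fold; other peaks (Dp1, p115, crp, RhoU, Atg17) and the genes comm, CR43727 and ana2 are examples chosen after their values were seen. Members and lists were chosen with earlier results of these data known. Counting scripts were checked on simulated data. Tools were Python 3.11.15, pandas 2.3.3, NumPy 2.4.6 and SciPy 1.17.1.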

Additional observations from a re-analysis of the deposited data

Results flagged for a closer look

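Each difference here was set apart because the effects in 2 groups had opposite signs and at least 1 passed 2-fold. The smaller effect could be slight, as for eEF1alpha2 in heads (−0.03), and is not read as a response. With 1 library per group, none of these differences was tested. Values are differences between 2 log2 differences of head-bound genes. Between wild-type and mutant heads after irradiation, asRNA:CR45135 differed by −2.11 (−1.57 in wild type, 0.54 in the mutant) and CG15456 by 1.36 (1.22 and −0.14).

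Between irradiated wild-type embryos and irradiated wild-type heads, Rab3-GEF differed by 3.63 (3.52 in embryos, −0.11 in heads). CG12194 differed by 2.35 (2.24 and −0.11), CG1504 by 2.11 (1.93 and −0.18), asRNA:CR44381 by 1.97 (1.64 and −0.32) and eEF1alpha2 by 1.20 (1.17 and −0.03). CG15456 ran the other way, by −1.34 (−0.12 in embryos, 1.22 in heads). For mutant minus wild type in mock animals, heads against embryos, CG15456 differed by 1.72 (0.72 in heads, where embryos had 37.4 FPKM in wild type and 18.2 FPKM in the mutant), Sse, which encodes the protease separase, by 1.65 (0.63 and −1.02), and CG3987 by −1.19 (−1.04 and 0.14).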

How the results depend on the processing

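No paired analysis was possible because each group holds 1 library and the labels carry no shared replicate numbers. The counts of summits inside gene intervals and near gene starts stayed within 1.5 times of those reported under each alternative run. Overlap with embryo peaks fell from 75 to 42 when at least 50% of each peak had to overlap. The count of bound genes past 2-fold in irradiated wild-type heads went from 2 to 4 and 10 with starts within 2000 and 5000 bp, and to 0 with a pseudocount of 5 FPKM. In irradiated mutant heads it went from 0 to 2 and 4 at those distances, to 1 with summits anywhere inside the gene and to 4 with a pseudocount of 0.1. Between mutant and wild type in mock heads it went from 13 to 29 within 5000 bp, to 6 with peaks at −log10 q of 5 or more, and to 6 without the low-fold runs. In irradiated heads it went from 14 to 33, 7 and 6 under the same 3 settings, and to 9 with a pseudocount of 5. With runs limited to a highest fold under 3, 2 of 8 genes were lower, against 7 of 17. Leaving out the runs and changing their fold limit were chosen after seeing the data. A wider distance takes in more genes, and the cause of the other shifts was not tested. The planned search of head peaks for a p53 motif was not run, since no genome sequence was used here. Peak lists give no value where no peak was called, and 1 library per group leaves the spread between animals unmeasured.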

Other observations

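Beside REPTOR, head peaks lay at 3 more genes of TOR signalling, the nutrient-sensing growth pathway: scyl and chrb, whose products restrain TOR, and Lst8, a subunit of TOR complexes. These genes were picked after their values were seen, from no list of the pathway, and 3.52% of all expressed genes held a head summit or had one within 1 kb of the start. The chrb peak was 5.80-fold (3L:11489699-11490054) and shared with embryos. Its summit lay 2316 bp from the start of chrb, further than 1 kb. The scyl summit was 3.21-fold and 415 bp from its start, and the Lst8 summit was 3.48-fold and 230 bp from its start.

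In wild-type embryos, mock and irradiated, scyl had 210 and 382 FPKM, chrb 81.5 and 151 FPKM, and Lst8 33.0 and 65.9 FPKM. In mutant embryos scyl had 142 and 140 FPKM, chrb 65.5 and 62.0 FPKM, and Lst8 48.5 and 54.4 FPKM. Irradiated wild-type embryos were the highest library for all 3 genes, each just under 2-fold. In heads scyl had 48.3 and 41.2 FPKM in wild-type and 24.8 and 24.4 FPKM in mutant libraries, and chrb had 44.0 and 42.8 FPKM in wild-type and 32.4 and 27.8 FPKM in mutant libraries, the mutant pair below the wild-type pair in both genes. Lst8 had 22.1 and 34.1 FPKM in wild-type and 29.7 and 32.6 FPKM in mutant heads, with mock wild-type heads the lowest of the 4.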
